A study of Rattus norvegicus with 6 samples.

Results

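The genes of megalin endocytosis and of the albumin-family carriers made up 10 of the 18166 genes measured in the kidneys of diabetic rats. They comprised 5 carriers of vitamins, hormones and lipids in plasma (Gc, Afm, Alb, Ttr and Rbp4), 4 genes by which the proximal tubule takes up filtered protein (Lrp2, Cubn, Amn and Dab2), and the vitamin D receptor Vdr. The 10 were chosen by their HQYDP against DM values in the same arrays that are described below, so those differences are given as a description with no test. For every gene, the transcript row paired with that gene symbol alone and with the highest mean was used. RNA from the kidney cortex of 3 HQYDP rats and 3 DM rats was hybridized to Affymetrix Rat Gene 2.0 ST arrays, 1 array for each rat, and the values are on a log2 scale. The study asked which genes of the diabetic kidney differ under the Qishen Yiqi dripping pill (QYDP), a compound of traditional Chinese medicine.

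All 6 animals were male Sprague-Dawley rats made diabetic with 60 mg/kg streptozotocin, which destroys the insulin-producing β cells, and their labels give an age of 17 weeks. The HQYDP group was given 300 mg/kg/day QYDP by gavage for 8 weeks, and the DM group received saline in equal volume. The dose, the sex and the cortex come from the paper, while the labels give kidney only. The titles of the 3 DM arrays, but not those of the 3 HQYDP arrays, carry the mark of a re-analysis, without saying of what. A difference in how the arrays were run or processed therefore cannot be told apart from the difference between the groups. No normal control array was analysed here, so the values do not say on which side of a healthy kidney either group lies.

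The carriers bring fat-soluble vitamins and hormones through the blood and are made mainly by the liver. The small ones, and a little albumin, pass the glomerular filter and are caught by megalin, encoded by Lrp2, and by cubilin, encoded by Cubn, on the brush border of the proximal tubule. Amnionless, encoded by Amn, carries cubilin to the cell surface, and Dab2 links the tail of megalin to clathrin. The vitamin D binding protein, encoded by Gc, brings 25-hydroxyvitamin D into the tubule by this route. There the vitamin is converted to the hormone that binds the receptor Vdr.

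The medians of the 6 arrays lay between 4.70 and 4.85. Kidney proximal tubule markers were bright on every array, with 12.46, 12.50 and 12.37 for Miox on the HQYDP arrays against 12.41, 12.40 and 12.29 on the DM arrays. Slc34a1, the phosphate transporter of the same segment, had 11.97, 12.08 and 11.63 on the HQYDP arrays against 12.40, 11.77 and 12.03 on the DM arrays. DM replicate 3 stood apart from the other DM arrays in tubular injury markers. The mean of 15 of these markers, each centred on its own mean over the arrays, was -0.43, -0.72 and -0.43 in HQYDP and 0.76, 0.92 and -0.10 in DM. Members' differences are therefore also given without DM replicate 3. In pieces of whole cortex, fewer cells of a type and less RNA in each cell cannot be told apart.

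Of the 10 genes, 2 were past the study's thresholds, which call a gene at a fold above 1.5 with p below 0.05 before adjustment, and both were higher in HQYDP. Among all genes, 596 of 18166 (3.28%) passed in either direction, 266 (1.46%) higher and 330 (1.82%) lower in HQYDP. With each array centred on its median, 393 genes were higher and 253 lower, so that 60.8% of those that passed were higher, against 44.6% without centring. At an unadjusted p under 0.05 alone, 1340 genes (7.38%) passed. An adjusted p under 0.05 was reached by 3 genes (0.0165%) in limma. The values of the groups did not overlap in the same 2 of the 10 genes, against 2196 genes (12.1%) of all, with 1105 (6.08%) above and 1091 (6.01%) below. Since this contrast chose the 10 genes, nothing is read from these counts. The median difference of the 10 genes was 0.13, and that of all genes was -0.0017.

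**Figure D1:**
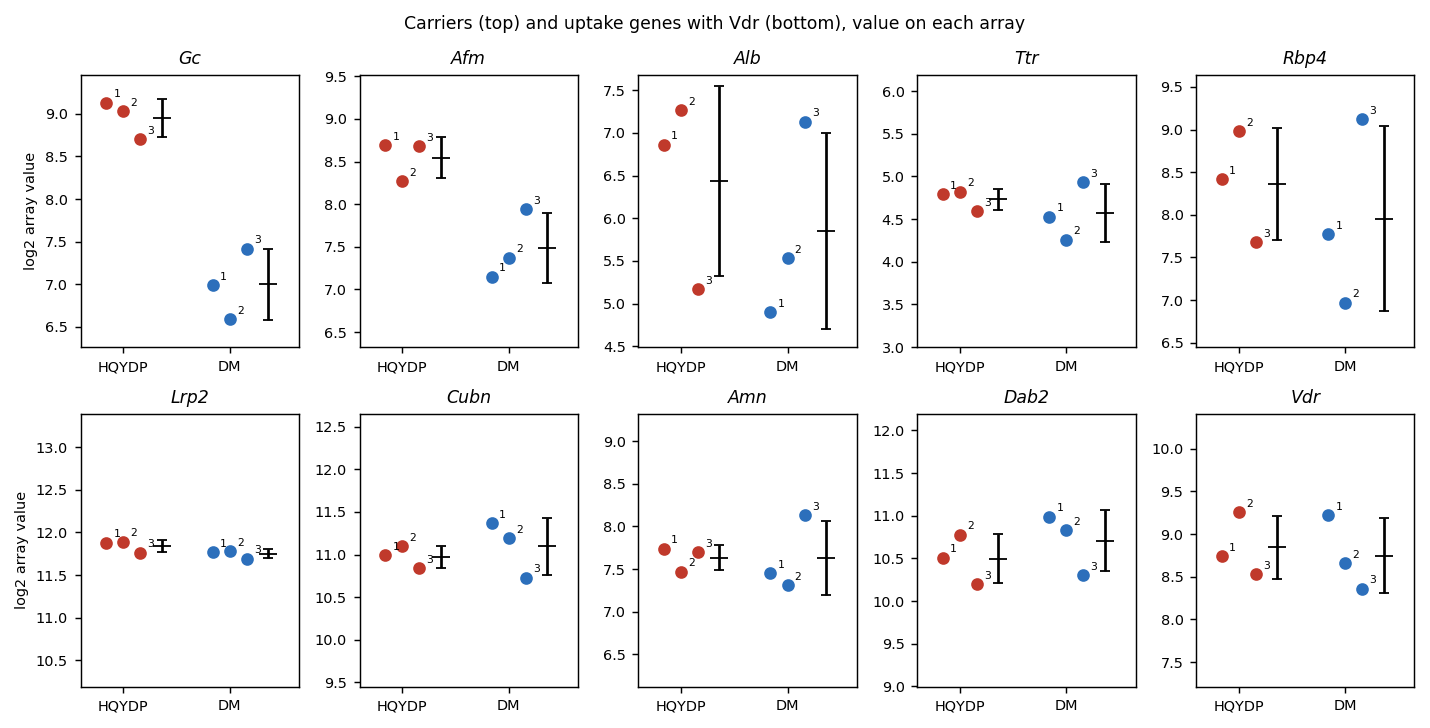
Log2 values of each of the 10 genes on the HQYDP arrays (left in each panel) and the DM arrays (right), 3 per group, with the mean and SD of each group. The HQYDP and DM values are apart in Gc and Afm and overlap in the other 8 genes.

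Gc differed most. It encodes the vitamin D binding protein, the plasma carrier of 25-hydroxyvitamin D, and liver is its main source. Gc had log2 values of 9.13, 9.03 and 8.70 on the HQYDP arrays, against 6.99, 6.59 and 7.42 on the DM arrays. All 3 HQYDP values lay above all 3 DM values, with a gap of 1.28 between the lowest HQYDP and the highest DM array. The means were 8.95 ± 0.22 in HQYDP and 7.0 ± 0.41 in DM (SD, n = 3 each), a log2 difference of 1.95 (standard error, SE, 0.22), or 3.87-fold. By size of the difference, Gc was number 4 of 18166 genes among those higher in HQYDP. The difference was between 1.75 and 2.16 when each array was left out in turn, and 2.16 without DM replicate 3. Gc was past the thresholds of the study in all 18 alternative settings. Nothing is read from that count, since this contrast chose Gc. The setting with no fold threshold could not lose the call, and the other choices of row gave the same difference.

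The stretch before the start of the Gc gene is shown because Gc differed most, with the stretch before Alb, the archetypal liver gene of the same chromosome, beside it. Both are from RefSeq on GRCr8, 5′ to 3′ on the strand of the gene, and promoters were found there for 9 of the 10 genes, Afm not among them. Capitals mark the core site GTTAAT of HNF1, a homeobox factor of liver and proximal tubule, and in Alb also the D box letters (TTATGTAA, here on the opposite strand) known from the PAR-bZIP factors Dbp, Hlf and Tef. Gc is given as 250 bases at chr14:18916005-18916254 on the plus strand, and Alb as the 186 bases outside the annotated gene at chr14:17907044-17907229 on the minus strand.
Gc: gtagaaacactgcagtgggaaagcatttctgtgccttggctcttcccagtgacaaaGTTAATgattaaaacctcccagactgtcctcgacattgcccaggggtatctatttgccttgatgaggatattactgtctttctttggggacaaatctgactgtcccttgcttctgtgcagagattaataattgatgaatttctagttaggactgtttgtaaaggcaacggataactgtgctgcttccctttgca
Alb: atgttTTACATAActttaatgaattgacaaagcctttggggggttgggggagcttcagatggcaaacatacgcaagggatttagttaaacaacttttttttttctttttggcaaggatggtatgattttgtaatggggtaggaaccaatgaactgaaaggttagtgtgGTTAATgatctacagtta

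In the 250 bases before the start, on both strands, GTTAAT occurred in 2 of the 9 promoters, Gc (-194 to -189 from the start) and Alb (-82 to -77), and in 6.46% of 27457 rat promoters. The promoter of Afp, the fetal albumin relative, held it at -135 to -130. The full palindromic HNF1 site, the core and its reverse complement with 1 base between them, occurred in 0 of the 9 and in 0.00364% of all promoters. The D box TTATGTAA occurred in 1 of the 9, that of Alb (-245 to -238), and in 0.816% of all promoters. GTTAAT is contained in the full site, so these searches overlap. Positions are counted from the start in the promoter table. For Alb that start lies inside the annotated gene, so the 250 bases searched run past the end of the stretch printed above. Only exact letters were searched, so a site spelled with other letters was neither counted nor marked. A match is a description of letters and not of binding, and it does not mark the place of a known site.

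Over the 6 arrays, the genes nearest to Gc in pattern were Serpinb12, Tff3 and Rgn. Likeness was the root mean square distance of log2 values, each gene centred on its mean over the 6 arrays, and it was 0.30, 0.32 and 0.34 for these genes. Rgn, or regucalcin, a calcium-binding protein of liver and kidney, had 10.68, 10.25 and 10.57 on the HQYDP arrays and 7.83, 7.80 and 9.08 on the DM arrays. Tff3, a secreted trefoil peptide, had 11.21, 10.87 and 11.02 on the HQYDP arrays and 8.75, 9.12 and 10.02 on the DM arrays. Serpinb12, an intracellular serpin, had 5.97, 5.21 and 5.02 on the HQYDP arrays and 3.72, 3.50 and 3.63 on the DM arrays. In all 3 genes the HQYDP arrays lay above the DM arrays, and in Rgn and Tff3 DM replicate 3 was the DM array nearest to HQYDP. Likeness to Gc was measured over these same arrays with the group difference included. These shared features thus largely follow from how the 3 genes were chosen, and nothing is read from them.

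Afm, which encodes afamin, a carrier of vitamin E and of lipid-modified Wnt proteins, was the other gene whose groups were apart. Its log2 values were 8.69, 8.27 and 8.68 on the HQYDP arrays, against 7.15, 7.37 and 7.94 on the DM arrays. The gap was narrower than for Gc, 0.32 between HQYDP replicate 2 and DM replicate 3. The means were 8.55 ± 0.24 in HQYDP and 7.49 ± 0.41 in DM (SD, n = 3 each), a difference of 1.06 (SE 0.22), or 2.08-fold. Afm was number 31 of 18166 genes by this difference. The difference stayed between 0.89 and 1.29 with each array left out in turn, and was 1.29 without DM replicate 3. Afm was past the thresholds of the study in all 18 alternative settings, and, as for Gc, nothing is read from that count. The genes nearest to Afm over the 6 arrays were Slc22a22, an organic anion transporter, Ppic, a cyclophilin, and Egf, the epidermal growth factor of the distal nephron, with distances of 0.11, 0.14 and 0.14. Egf had 11.05, 11.11 and 11.33 on the HQYDP arrays and 9.81, 9.98 and 10.54 on the DM arrays.

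**Figure D2:**
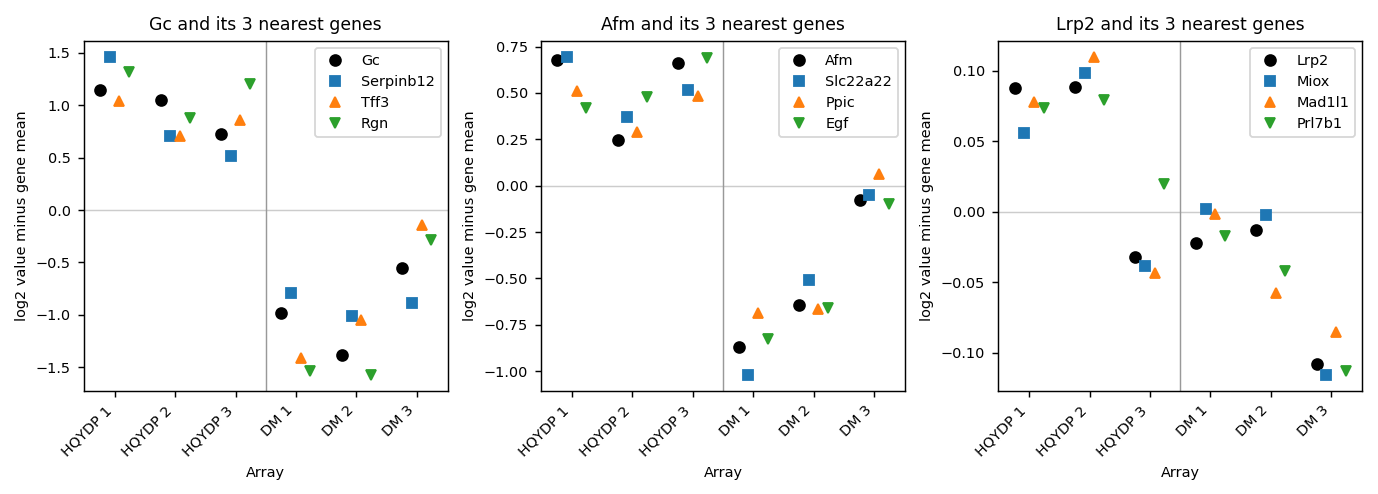
Log2 values of Gc, Afm and Lrp2 and of the 3 genes nearest to each, minus the gene's mean over the 6 arrays, with HQYDP arrays left of the line and DM arrays right of it. The genes near Gc and Afm lie above 0 on all HQYDP arrays, which largely follows from their choice by likeness over these arrays. The spread in the Lrp2 panel is far smaller than in the other panels.

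Afm, Afp and Alb lie next to each other on rat chromosome 14, in that order in RefSeq GRCr8, and Gc, the fourth albumin relative followed here, lies on the same chromosome between Npffr2 and Slc4a4. The 4 genes encode homologous plasma proteins. Afp, which encodes α-fetoprotein, had 4.50, 4.37 and 3.88 on the HQYDP arrays and 4.45, 4.31 and 4.64 on the DM arrays, with overlapping groups and a difference of -0.21 (SE 0.19, limma adjusted p = 0.923) that ran from -0.34 to -0.03 with each array left out. Log2 differences within this family were 1.95 for Gc, 1.06 for Afm, 0.58 for Alb and -0.21 for Afp. On each array Afp lay below the median of that array, and a change in a gene so dim could go unseen. Whether these differences differ from each other was not tested.

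Alb, which encodes albumin, the main protein of plasma, varied more within groups than between them. It had 6.86, 7.27 and 5.17 on the HQYDP arrays, against 4.90, 5.53 and 7.13 on the DM arrays. HQYDP replicate 3 lay below DM replicate 2, and DM replicate 3 lay above HQYDP replicate 1. The means were 6.43 ± 1.11 in HQYDP and 5.85 ± 1.15 in DM (SD, n = 3 each), a difference of 0.58 (SE 0.61), while the values ranged over 2.10 within HQYDP and 2.23 within DM. Only 0.11% of all genes had a larger spread within groups than Alb. The difference was past the thresholds of the study without HQYDP replicate 3 (1.21) or without DM replicate 3 (1.22), and it was 0.10 without DM replicate 1.

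Rbp4, the retinol binding protein that carries vitamin A from the liver, was also spread widely within groups. It had 8.42, 8.98 and 7.68 on the HQYDP arrays, against 7.77, 6.97 and 9.12 on the DM arrays. The highest and the lowest of the 6 values were both from DM rats. The means were 8.36 ± 0.65 in HQYDP and 7.96 ± 1.09 in DM (SD, n = 3 each), a difference of 0.41 (SE 0.49), and 0.347% of all genes had a larger spread within groups. Leaving out DM replicate 2 gave -0.09, and leaving out DM replicate 3 gave 0.99, past the thresholds of the study.

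Ttr encodes transthyretin, which carries thyroxine and holds Rbp4 in plasma so that it is not filtered. It had 4.79, 4.82 and 4.59 on the HQYDP arrays, against 4.53, 4.26 and 4.93 on the DM arrays. The HQYDP values lay within the range of the DM values. The means were 4.73 ± 0.12 in HQYDP and 4.57 ± 0.34 in DM (SD, n = 3 each), a difference of 0.16 (SE 0.19). It was 0.34 without DM replicate 3 and -0.0002 without DM replicate 2. Ttr was dim and was left out by the filter for genes above the median level, so a change in it could go unseen.

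Alb, Rbp4 and Ttr shared their highest arrays: HQYDP replicates 1 and 2 and DM replicate 3 were the 3 highest in each. DM replicate 3 was the highest DM array in 5 of 5 carriers, Gc and Afm included, and HQYDP replicate 3 was the lowest HQYDP array in 4 of 5, all but Afm. Liver is the main source of all 5 carriers, and the mean of 19 other hepatocyte markers, centred as above, ran over 0.05, -0.03 and -0.13 in HQYDP and -0.01, 0.01 and 0.12 in DM. None of the 19 was past the thresholds of the study (3.28% of all genes were), and their median difference was -0.14, with values from -0.43 to 0.67. The largest of these differences were those of Hrg, which encodes histidine-rich glycoprotein (0.67, SE 0.36, limma adjusted p = 0.774), and F2, which encodes prothrombin (-0.43, SE 0.29, limma adjusted p = 0.851). Hrg passed without HQYDP replicate 2 (0.89) or DM replicate 2 (1.03) and with array weights (0.94), and was 0.33 without DM replicate 1 and 0.37 without HQYDP replicate 1. F2 passed without DM replicate 1 (-0.77), and was -0.19 without DM replicate 3 and -0.26 without HQYDP replicate 1. Without DM replicate 1, 2 of the 19 markers passed. Most of the 19 markers lay below the array medians, as Cps1 (means 3.31 in HQYDP and 3.66 in DM) and C9 (3.11 and 3.15). Others were bright, as Cyp2e1 (10.16 and 10.46). A change in genes so dim could go unseen, so the level mean does not show that liver-type genes were unchanged. The part of liver-type genes in the carrier values was not tested.

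**Figure D3:**
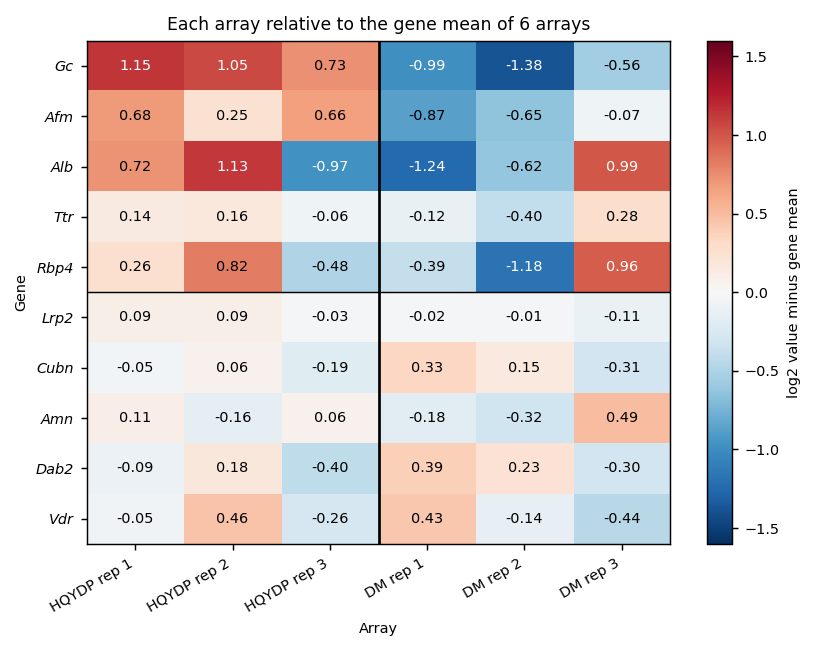
Log2 values of the 10 genes on each of the 6 arrays, each gene centred on its mean over the arrays, with HQYDP arrays left of DM arrays. Carriers and uptake genes with Vdr are shown apart, and DM replicate 3 is the highest DM array in 5 of 5 carriers and the lowest DM array in 4 of the other 5 genes.

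Of the 4 uptake genes, 0 were past the thresholds of the study, beside 3.28% of all genes, and nothing is read from this count. Lrp2, which encodes megalin, the large receptor for filtered carriers, had 11.88, 11.89 and 11.76 on the HQYDP arrays, against 11.77, 11.78 and 11.69 on the DM arrays. HQYDP replicate 3 lay below DM replicates 1 and 2, so the groups overlapped within a narrow band. The means were 11.85 ± 0.07 in HQYDP and 11.75 ± 0.05 in DM (SD, n = 3 each), a difference of 0.10 (SE 0.14). Of all genes, 98.7% had a larger spread within groups than Lrp2, and the difference lay between 0.07 (without DM replicate 3) and 0.14 with each array left out. The SE here is larger than the spread of the values because limma shrinks the variance of each gene toward that of all genes. Median centring gave 0.16. Miox, the myo-inositol oxygenase of the proximal tubule, was the gene nearest to Lrp2 over the 6 arrays, with a distance of 0.018, followed by Mad1l1 (0.025) and Prl7b1 (0.026). Genes that vary little all lie near Lrp2 by this distance, and Prl7b1 was very dim, from 1.59 to 1.78. Nothing is read from this likeness.

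Cubn encodes cubilin, the co-receptor that binds albumin and the vitamin D binding protein. It had 10.99, 11.10 and 10.84 on the HQYDP arrays, against 11.37, 11.19 and 10.73 on the DM arrays. The DM arrays enclosed the HQYDP arrays, with means of 10.98 ± 0.13 in HQYDP and 11.10 ± 0.33 in DM (SD, n = 3 each) and a difference of -0.12 (SE 0.19). It was -0.30 without DM replicate 3 and 0.02 without DM replicate 1. Amn, the partner of cubilin, had 7.74, 7.47 and 7.70 on the HQYDP arrays, against 7.45, 7.31 and 8.13 on the DM arrays, with DM replicate 3 the highest of all. Its means were 7.63 ± 0.14 in HQYDP and 7.63 ± 0.44 in DM (SD, n = 3 each), a difference of 0.01 (SE 0.22), which was 0.25 without DM replicate 3 and -0.15 without DM replicate 2. Dab2, the clathrin adaptor of megalin, had 10.51, 10.78 and 10.20 on the HQYDP arrays, against 10.99, 10.83 and 10.30 on the DM arrays. The groups overlapped, with means of 10.50 ± 0.29 in HQYDP and 10.71 ± 0.36 in DM (SD, n = 3 each) and a difference of -0.21 (SE 0.22). It was -0.41 without DM replicate 3 and -0.06 without HQYDP replicate 3.

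Vdr, the nuclear receptor for the hormone form of vitamin D, had 8.74, 9.26 and 8.53 on the HQYDP arrays, against 9.22, 8.66 and 8.36 on the DM arrays. The highest HQYDP and the highest DM array were nearly level. The means were 8.84 ± 0.37 in HQYDP and 8.75 ± 0.44 in DM (SD, n = 3 each), a difference of 0.10 (SE 0.26). It was -0.10 without DM replicate 3, -0.11 without HQYDP replicate 2 and 0.34 without DM replicate 1. Over Lrp2, Cubn, Amn, Dab2 and Vdr, DM replicate 3 was the lowest DM array in 4 of 5 genes, all but Amn, and HQYDP replicate 2 was the highest HQYDP array in 4 of 5, again all but Amn. The array that was highest among the DM arrays for every carrier was thus the lowest among them for most of these genes. The median difference of the 8 genes other than Gc and Afm was 0.10, with values from -0.21 to 0.58. With 3 arrays against 3, an exact permutation test can give no p below 0.1, so no such test of a single gene could reach 0.05.

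Further genes of the same pathways were counted in lists, chosen with earlier results of these data known, and no list was tested as a set. In the endocytic machinery of the proximal tubule, 1 of 25 measured genes rose and 0 fell at the thresholds of the study (1.46% and 1.82% of all genes), and the median difference was -0.01. The same shares of all genes stand beside the counts of each further list. The gene that rose was Clcn5, the chloride-proton exchanger that acidifies endosomes and is mutated in human Dent disease. Clcn5 had 8.12, 8.47 and 7.80 on the HQYDP arrays, against 7.63, 7.65 and 7.16 on the DM arrays, a difference of 0.65 (SE 0.21, limma adjusted p = 0.493). Its call was lost when HQYDP replicate 2 or DM replicate 3 was left out (0.48 in each case). The lysosomal proteases Ctsl and Ctsd, which digest what has been taken up, had 11.26, 11.20 and 11.44, and 10.28, 10.39 and 10.04, on the HQYDP arrays, against 11.94, 11.82 and 11.84, and 11.25, 10.67 and 10.53, on the DM arrays. Their groups did not overlap, and their differences of -0.57 and -0.58 were just short of a fold of 1.5. Both passed without DM replicate 2 (-0.59 for Ctsl and -0.65 for Ctsd) and with array weights, and Ctsd also without DM replicate 3 (-0.72) or HQYDP replicate 1 (-0.60) or 2 (-0.65), while it was -0.36 without DM replicate 1. Ctsl also passed without HQYDP replicate 3 (-0.64) and with quantile normalization. With DM replicate 2 left out, 3 genes of this list passed.

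Among other filtered ligands of megalin and cubilin, 2 of 19 measured genes fell and 0 rose, with a median difference of -0.20. Clu, which encodes clusterin, had 10.03, 9.55 and 9.29 on the HQYDP arrays, against 12.46, 11.67 and 10.15 on the DM arrays. It fell by 1.80 on the log2 scale (SE 0.48, limma adjusted p = 0.361), and the groups did not overlap. Lcn2, which encodes the iron-siderophore carrier lipocalin 2, fell by 2.04 (SE 0.67, limma adjusted p = 0.493) with overlapping groups, 6.61, 6.04 and 5.51 in HQYDP against 9.02, 9.11 and 6.15 in DM, and is named because it was the only other gene of this list to pass. Both genes are also markers of tubular injury and stand in that list too. Lcn2 did not pass without DM replicate 1 (-1.57) or DM replicate 2 (-1.53), and 4 genes of the list passed without DM replicate 3 or without HQYDP replicate 2. In the LDL receptor family, to which megalin belongs, 0 of 12 measured genes passed in either direction, beside 3.28% of all genes. Nothing is read from a count of 0 in a list so short. The median difference was -0.01. The largest difference there was -0.54 for Lrp1 (SE 0.18, limma adjusted p = 0.506), a scavenger receptor that had 6.66, 6.53 and 6.68 in HQYDP and 6.92, 7.52 and 7.04 in DM. Lrp1 passed without DM replicate 1 (-0.66) or DM replicate 3 (-0.60), which made the count of this family 1.

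Genes of vitamin D, calcium and phosphate handling, the pathway that the vitamin D binding protein feeds, showed 2 rises and 2 falls among 23 measured genes, with a median difference of 0.07. Casr, the calcium-sensing receptor, rose by 0.89 (SE 0.21, limma adjusted p = 0.279), with 8.79, 9.0 and 8.50 on the HQYDP arrays against 8.17, 7.52 and 7.93 on the DM arrays. Slc8a1, the sodium-calcium exchanger that returns calcium to the blood in the distal tubule, rose by 0.88 (SE 0.22, limma adjusted p = 0.329), with 7.95, 8.15 and 7.79 on the HQYDP arrays against 6.61, 7.20 and 7.44 on the DM arrays. Both kept HQYDP and DM apart. The 2 falls, Slc34a2, a phosphate transporter (-1.23, SE 0.44, limma adjusted p = 0.54), and Cyp24a1, the hydroxylase that inactivates vitamin D (-0.62, SE 0.25, limma adjusted p = 0.615), overlapped between the groups. They are named because they complete the count of 4. Cyp24a1 did not pass with median centring or without HQYDP replicate 1 (-0.54), HQYDP replicate 3 (-0.39), DM replicate 1 (-0.58) or DM replicate 2 (-0.60), and was -0.93 without HQYDP replicate 2. Slc34a2 did not pass without HQYDP replicate 2 (-1.09), HQYDP replicate 3 (-1.04), DM replicate 1 (-0.85) or DM replicate 2 (-1.06). Calb1, the calcium buffer calbindin, had 10.03, 10.47 and 10.37 on the HQYDP arrays and 9.37, 9.36 and 10.49 on the DM arrays. Its difference of 0.55 passed only when DM replicate 3 was left out (0.93). Calb1 was chosen after its values were seen. Other calcium genes of the list lay on both sides of it, none past the thresholds. Trpv6 (-0.56) and S100g (-0.21) were lower in HQYDP, and Trpv5 (0.20) and Atp2b4 (0.36) were higher. Without DM replicate 3, 7 genes of this list passed, and without DM replicate 2, 2 did.

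In the vitamin A, vitamin E and thyroid hormone genes, where retinol and thyroxine from Rbp4 and Ttr are put to use, 1 of 24 measured genes rose and 2 fell, with a median difference of -0.09. Dio1, the deiodinase that makes active thyroid hormone, rose by 0.78 (SE 0.21, limma adjusted p = 0.373), with 10.28, 10.59 and 9.95 on the HQYDP arrays and 9.23, 9.43 and 9.80 on the DM arrays. Lrat, which esterifies retinol for storage, fell by 0.90 (SE 0.21, limma adjusted p = 0.279), with 3.87, 4.46 and 3.73 on the HQYDP arrays and 5.06, 4.91 and 4.80 on the DM arrays. Neither overlapped between the groups. Lrat was dim, below the array medians on all HQYDP arrays, and was left out by the filter for genes above the median level. Stra6, the membrane receptor for Rbp4, fell by 0.67 (SE 0.26, limma adjusted p = 0.586) with overlapping groups, and did not pass without HQYDP replicate 3 (-0.47), DM replicate 1 (-0.60) or DM replicate 2 (-0.48).

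Of the transcription factors of liver and proximal tubule, 2 of 18 measured genes rose and 0 fell, with a median difference of 0.06. Both, Dbp and Tef, belong to the PAR-bZIP family, which follows the circadian clock. Tef had 7.06, 7.25 and 7.39 on the HQYDP arrays, against 6.42, 6.25 and 6.75 on the DM arrays, a rise of 0.76 (SE 0.18, limma adjusted p = 0.281). Dbp rose by 0.91 (SE 0.28, limma adjusted p = 0.453), but its groups overlapped and it did not pass with array weights (0.68), with 8.30, 9.30 and 9.10 on the HQYDP arrays and 8.40, 7.93 and 7.62 on the DM arrays. The hour at which each rat was killed was not stated in the sources used here. Its part in these values was not tested. Hnf4a, which drives many liver and proximal tubule genes, had a difference of 0.26 (SE 0.20, limma adjusted p = 0.882), and 0.12 to 0.40 with each array left out. No gene in any of these 6 lists had an adjusted p under 0.05.

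**Figure D4:**
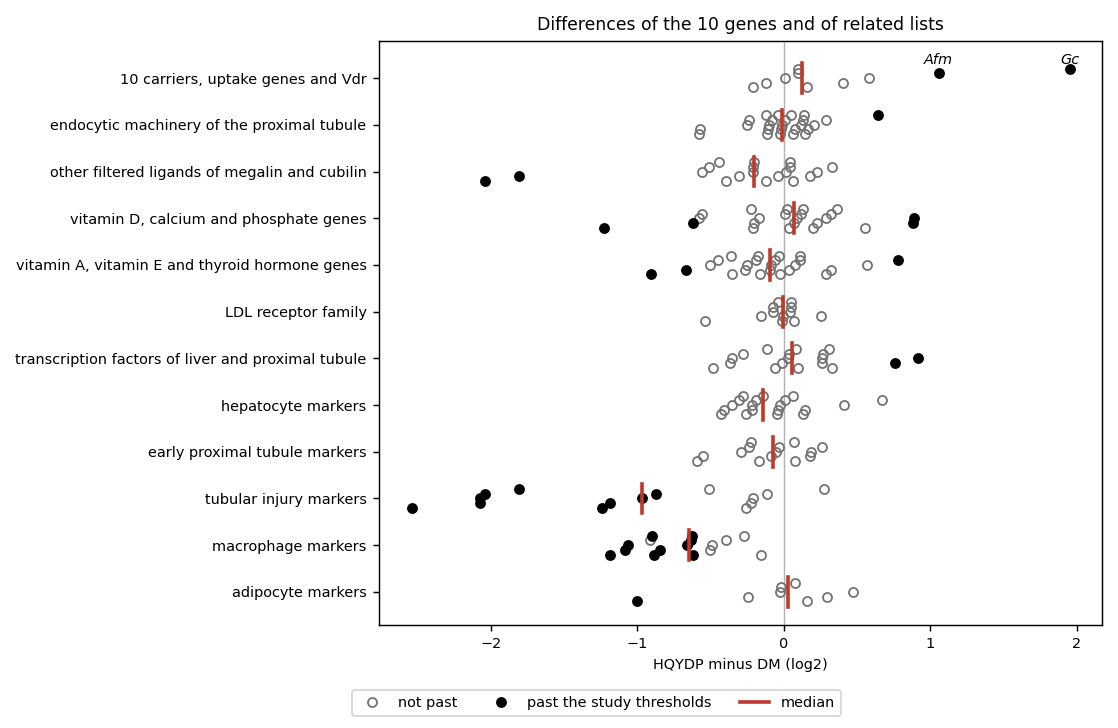
HQYDP minus DM differences on the log2 scale for the 10 genes and for each list of related genes or markers, 1 point per gene, filled where the gene was past the thresholds of the study, with the median of each list. Gc and Afm stand to the right of the other 8 genes, and the injury and macrophage markers lie mostly to the left of 0.

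The higher values of Gc and Afm stood beside lower injury and macrophage markers in HQYDP. Of 15 tubular injury markers, 9 fell and 0 rose at the thresholds of the study (1.82% and 1.46% of all genes), with a median difference of -0.97. Those past the thresholds without overlap included Fgb, the fibrinogen β chain (-2.08, SE 0.33, limma adjusted p = 0.11), Spp1, or osteopontin (-2.07, SE 0.43, limma adjusted p = 0.241), Clu as given above, and Cdkn1a, the cell cycle inhibitor p21 (-1.24, SE 0.16, limma adjusted p = 0.0561). Of 16 macrophage markers, 10 fell and 0 rose, beside the same shares of all genes. The median of the macrophage markers was -0.64, and Cd14 had -1.06 (SE 0.30, limma adjusted p = 0.416). The macrophage mean was -0.13, -0.52 and -0.40 in HQYDP and 0.49, 0.88 and -0.31 in DM. The macrophage count was 15 without DM replicate 3 but 2 without DM replicate 2, 3 without DM replicate 1 or HQYDP replicate 2 and 5 without HQYDP replicate 3, and the injury count ran from 5 without DM replicate 2 to 9. Gc and Afm were highest among the DM arrays on DM replicate 3, the DM array with the lowest injury and macrophage means, and the part of injury or of infiltrating cells in their values was not tested.

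Lrp2 and Cubn, which were not past the thresholds, were left out of the markers of the early proximal tubule, the segment that holds megalin and cubilin. Of the other 14 markers, 0 were past the thresholds, beside 3.28% of all genes, and nothing is read from this count. The median difference of these 14 markers was -0.07, and their mean ran from -0.27 to 0.19 in HQYDP and from -0.02 to 0.13 in DM. The largest differences were those of Slc5a12, a lactate transporter (-0.59, SE 0.29, limma adjusted p = 0.731), and Slc2a2, the glucose transporter GLUT2 (-0.55, SE 0.22, limma adjusted p = 0.611), and each passed without DM replicate 3 (-0.80 for Slc5a12 and -0.82 for Slc2a2). Slc5a12 also passed without HQYDP replicate 2 (-0.79) and Slc2a2 with array weights, and Slc5a12 was -0.31 without DM replicate 2. Among 8 adipocyte markers, listed because fat also makes Rbp4, 0 rose and 1 fell, with a median of 0.03. The gene that fell was Fabp4, the fatty acid binding protein of fat and of capillaries (-1.0, SE 0.35, limma adjusted p = 0.512), with overlapping groups, and the call was lost without HQYDP replicate 1 (-0.72) or DM replicate 2 (-0.77). Adipoq, or adiponectin, had a difference of 0.47 (SE 0.16, limma adjusted p = 0.493) and was not past the thresholds. The adipocyte mean was -0.03, -0.15 and 0.13 in HQYDP and 0.13, -0.13 and 0.06 in DM. The part of fat in the Rbp4 values was not tested.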

How the data were processed

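Kidney cortex RNA came from 3 HQYDP and 3 DM rats, with an Affymetrix Rat Gene 2.0 ST array for each. The values deposited by the authors are log2 signals per transcript, taken here as normalized between arrays. Software and normalization were not given in the sources used here. The log base was inferred from the range, 0.35 to 13.59. Of 36685 rows, 18511 were paired with 1 gene symbol by the platform annotation, 575 with several and 17599 with none. No row with several genes listed any of the 10 genes. Matching Entrez IDs to RefSeq (GRCr8) succeeded for 18394 rows and changed 0 symbols. For the 291 genes with several rows the brightest on average was used, and dim genes were kept.

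HQYDP and DM were compared by limma 3.58.1 under R 4.3.3 (lmFit, eBayes, two-sided, no covariates, Benjamini-Hochberg adjustment over all 18166 genes). The fit was tested on simulated data. The study's methods ask for a fold above 1.5 with p below 0.05 before adjustment. Student's t-test, which they name for differences between groups, was run as an alternative (the methods' t-test). Named were the 10 genes, Afp, up to 4 genes of each list past both thresholds without overlap (or, where there were none, the 1 or 2 of largest difference), and the 3 genes nearest to Gc, Afm and Lrp2. Lcn2, Slc34a2, Cyp24a1, Stra6, Dbp, Ctsl, Ctsd, Calb1, Trpv5, Trpv6, S100g, Atp2b4, Hnf4a and Slc34a1 were added by hand, outside this rule. The 10 genes and all lists (6 of pathways, and markers of hepatocytes, early proximal tubule, tubular injury, macrophages and adipocytes) were chosen with earlier results of these data known. Members were left out of the lists. Motifs were searched in the 250 bases before each start in the RefSeq promoter table. Other settings tried were an intensity trend, array weights, quantile normalization and median centring, leaving out dim genes, other choices of row, no fold threshold, the replicate number as a block, the methods' t-test and Welch's test, and each array left out. The labels name the kidney of a rat for each array, and p-values measure only the spread between these arrays. The precision is limited by the number of arrays, which hold no counts.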

Additional observations from a re-analysis of the deposited data

How the results depend on the processing

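Gc and Afm were past the thresholds of the study in all 18 alternative settings, but this contrast chose them, so nothing is read from that count. There were 120 member differences under alternative settings. The replicate block and the other choices of row repeated the main difference of every member. Leaving out 1 of the 3 arrays of a group shifts its mean by less than the SD of that group. With the SDs of these genes, no such shift could reach the spread, taken as the mean SD of the groups. Among the 120, only that of Lrp2 with median centring (0.16) moved by more than this spread, and no stability is read from this. No called result changed direction. Among the uncalled member differences, the sign turned for Vdr with array weights (-0.008) and, with 1 array left out, for Vdr, Rbp4, Cubn, Amn and Ttr. The count of all genes past the thresholds was 278 with the methods' t-test, 200 with Welch's test, 362 among genes above the median level and 1340 with no fold threshold, against 596, and it ran from 504 to 1109 (without DM replicate 3) with each array left out. At an adjusted p under 0.05, where limma called 3 genes, the methods' t-test and Welch's test called 0, the intensity trend 8, array weights 16, median centring 11, and the filters above the lower quartile and above the median 9 and 7. With arrays left out, this count ran from 0 to 151 (without DM replicate 3), and that of the 10 genes past the thresholds from 2 to 4. In the endocytic machinery (1), the count was 0 with the methods' t-test and with Welch's test, 3 with array weights, 2 with quantile normalization and 3 with no fold threshold, and 1 to 3 with arrays left out. In the other ligands (2), it was 0 with both of those tests, 4 with no fold threshold, and 1 to 4 with arrays left out. In the vitamin D list (4), the methods' t-test gave 2, Welch's test 1 and no fold threshold 7, and arrays left out gave 2 to 7. In the transcription factors (2), both of those tests and array weights gave 1, no fold threshold 4, and arrays left out 2 to 3. The LDL receptor family had 1 with no fold threshold and 0 to 1 with arrays left out, and the vitamin A list 2 to 4. The marker counts ran over 0 to 2 for hepatocytes and for the early proximal tubule, 5 to 9 for injury, 2 to 15 for macrophages and 0 to 1 for adipocytes. The methods' t-test gave 3 injury, 0 macrophage and 0 adipocyte markers. Both of those tests lost the calls of Clcn5, Clu, Lcn2, Slc34a2, Cyp24a1, Stra6, Dbp, Cd14 and Fabp4, and Welch's test alone that of Slc8a1. The causes were not tested, apart from the smaller number of genes or arrays that filters and omissions leave.

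Replicate numbers 1 to 3 occur in both groups, and the deviations of same-numbered arrays correlated at 0.14, -0.08 and 0.21 over 18166 genes, so the numbers were not taken as a pairing. With the replicate number as a block, 661 genes were past the thresholds, 2 had an adjusted p under 0.05, and 2 of the 10 genes passed. Of the named genes, Slc5a12 alone changed its call and passed (-0.59). With 3 arrays per group and the DM arrays alone marked as a re-analysis, neither a batch nor the spread of a larger group could be measured.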
